A study of Drosophila melanogaster with 3 samples.

Results

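Non-divergent promoter peaks are reproducible binding regions of the GFP-tagged CG4318 protein that lie at the start of a gene with no neighbour starting close by in the opposite direction. A peak was taken when its summit, the base of highest signal, lay no more than 500 bp from a protein-coding gene's transcription start site (TSS), and when that TSS had no opposite-strand protein-coding TSS of another gene within 1000 bp upstream. This rule used positions only, and 894 of the 5056 reproducible peaks met it (17.7%). A further 310 peaks (6.13%) lay at divergent promoters, where a second gene does start within that distance, and 3852 (76.2%) lay away from promoters. The 894 peaks belonged to 830 TSSs of 748 genes; 623 genes held 1 peak, 108 held 2, 13 held 3 and 4 held 4.

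Chromatin immunoprecipitation followed by sequencing was done with an anti-GFP antibody on whole prepupae of Drosophila melanogaster, males and females pooled, from a stable transgenic line with GFP fused to the C-terminus of CG4318. The 3 samples are biological replicates from 1 line and form 1 group, so replicates and parts of the genome are compared, not conditions. The age in the labels is far beyond the prepupal stage and was left aside. The fusion protein comes from a transgene, the promoter that drives it is not given in the sources used here, and a possible control experiment was not analysed here. In whole animals the data cannot tell which cells carried the protein, or whether few cells or many did, and the number of reads behind each list is unknown.

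A promoter is the DNA around a TSS where RNA polymerase II and the general transcription factors assemble. Drosophila promoters carry short core elements at fixed distances from the TSS, such as the TATA box and the Initiator, and many hold sites for GAGA factor, a protein that keeps promoter DNA clear of nucleosomes.

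Each replicate was deposited as a list of 30000 candidate regions with a signal score, and the reproducible list holds the 5056 highest-scoring regions of the pooled candidates. The scale of the score is not stated, so scores and ranks are compared within a list only. The 5056 strongest regions of a replicate are called its top list. Replicate 3 stood apart from the others: its top list held 73.3% of all reproducible peaks, against 84.6% in replicate 1 and 84.2% in replicate 2, and 16.4% of all reproducible peaks overlapped none of its 30000 candidates. Because the reproducible list was made from these same replicates, overlap with them is partly built in. CG4318 itself (FBgn0030455, chrX:13153461-13154924 in dm6, minus strand) held no non-divergent promoter peak. Its upstream neighbour CG4332 starts 114 bp away, so the rule would count a peak at that start as divergent. The lack of such a peak therefore does not show whether the protein bound there. The nearest non-divergent promoter peak, at MFS10, was 23578 bp away.

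The sequences under the 5 strongest summits are given because AT-rich DNA was the feature most of the peaks had in common. Each line is 81 bp of the Release 6 reference genome (dm6, from RefSeq) centred on the summit, read 5′ to 3′ on the strand of the gene, with the longest uninterrupted run of A and T in capitals. CG14100 is chr3L:19590583-19590663 (minus strand), CG31145 is chr3R:23669809-23669889 (minus), cu is chr3R:11197296-11197376 (plus), Hsp27 is chr3L:9383863-9383943 (plus) and larp is chr3R:28326538-28326618 (minus).
CG14100: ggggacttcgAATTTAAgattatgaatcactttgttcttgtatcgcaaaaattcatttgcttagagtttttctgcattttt
CG31145: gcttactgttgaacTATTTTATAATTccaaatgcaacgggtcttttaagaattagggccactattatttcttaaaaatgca
cu: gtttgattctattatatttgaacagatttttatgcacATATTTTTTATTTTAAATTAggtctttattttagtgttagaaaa
Hsp27: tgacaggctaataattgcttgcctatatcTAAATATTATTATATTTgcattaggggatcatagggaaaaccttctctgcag
larp: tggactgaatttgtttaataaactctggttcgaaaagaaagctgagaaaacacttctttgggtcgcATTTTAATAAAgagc

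The longest A and T runs were 7, 12, 20, 17 and 11 bp in these 5 windows, and the GC content of the windows was 30.9%, 30.9%, 18.5%, 34.6% and 34.6%. The window at CG14100, the strongest of all, held the shortest run. Long runs were therefore not present at every strong summit.

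A pair of whole promoters is given for the elements counted further on. Both are the 250 bp before the TSS, on the gene's strand, without exon sequence. The Hsp27 promoter (chr3L:9383813-9384062, plus) has its TATA box in capitals, and the promoter of Hexo2, a hexosaminidase gene (chrX:8709402-8709651, plus), has a GAGA factor motif in capitals.
Hsp27 promoter: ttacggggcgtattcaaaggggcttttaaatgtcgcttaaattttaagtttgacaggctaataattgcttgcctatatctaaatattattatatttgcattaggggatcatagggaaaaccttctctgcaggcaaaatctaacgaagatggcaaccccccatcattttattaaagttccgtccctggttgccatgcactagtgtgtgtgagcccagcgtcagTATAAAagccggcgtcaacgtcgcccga
Hexo2 promoter: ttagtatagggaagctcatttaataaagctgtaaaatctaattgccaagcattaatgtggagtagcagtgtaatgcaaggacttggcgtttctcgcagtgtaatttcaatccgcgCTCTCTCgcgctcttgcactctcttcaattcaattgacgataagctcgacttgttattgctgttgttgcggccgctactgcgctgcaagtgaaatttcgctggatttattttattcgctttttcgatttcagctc

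In the Hsp27 promoter the capitals start 28 bp upstream of the TSS, and the peak summit lies 160 bp upstream of it. In the Hexo2 promoter the motif starts 135 bp upstream and the summit lies 223 bp upstream. In both genes the summit is farther from the TSS than the element is.

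The strongest of the 894 peaks lay at genes of varied function, and most ranked close to each other across the replicates. The peak at CG14100 had a signal score of 2558 in the reproducible list, the second highest of all 5056, with its summit 99 bp upstream of the TSS. It scored 961 in replicate 1, 851 in replicate 2 and 747 in replicate 3, at ranks 2, 2 and 1. It was thus first or second in every list. CG31145 followed with 1948 (190 bp upstream; ranks 11, 6 and 7).

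Next came cu, which encodes the fly homolog of the deadenylase-family protein Nocturnin, with a score of 1625 and a summit 256 bp upstream; it scored 628, 608 and 386 in replicates 1, 2 and 3, at ranks 17, 14 and 28. Hsp27, a small heat shock protein, had a score of 1619 with ranks 14, 21 and 20. The peak at larp, an RNA-binding La-related protein, had 1479 with ranks 31, 23 and 21. All of these stood among the 50 strongest regions of each replicate.

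The other peaks among the 20 strongest scored between 1081 and 1446. They included those at eIF6, a factor of large ribosomal subunit maturation (1445; ranks 41, 17 and 25), and at Rtnl1, a reticulon that shapes the endoplasmic reticulum (1409; ranks 26, 39 and 22). The peak at ph-p, a subunit of Polycomb repressive complex 1, scored 1373 (ranks 36, 36 and 16). bbx, an HMG-box gene, had 1248 (ranks 28, 48 and 58). The signalling ligand gene spi, whose product Spitz activates the EGF receptor, had 1086 (ranks 49, 68 and 104). The remaining ones lay at CG18549, CG13921, Tina-1, Fkbp14 (an endoplasmic reticulum prolyl isomerase), CG13501, CG13631, Reg-5 and chn, a zinc-finger gene.

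GstE13 and Sox14 were the exceptions among the 20. GstE13, a glutathione S-transferase, scored 1237, with ranks 58 in replicate 1 and 34 in replicate 2 and no candidate in replicate 3. Sox14, an HMG-box transcription factor gene of the ecdysone response, scored 1081, with ranks 90 and 67 and none in replicate 3. Both were strong in a pair of libraries and unlisted in the third.

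**Figure D1:**
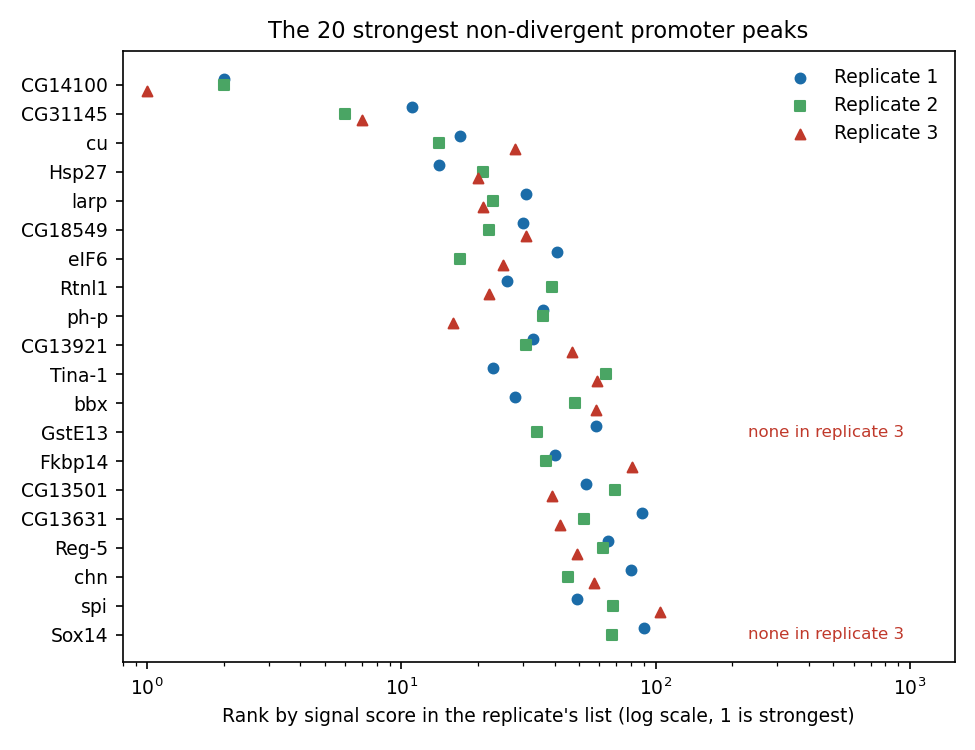
Rank of the strongest overlapping region in each replicate's list (x axis, log scale, 1 is the strongest) for the 20 peaks with the highest signal scores, 1 row per peak, labelled by the nearest gene. Of the 20 peaks, 18 have a point for all 3 replicates, at ranks from 1 to 104, and GstE13 and Sox14 have none for replicate 3.

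Over all 894 peaks the signal score had a median of 225 (quartiles 151 and 426, range 109 to 2558), against 293 at divergent promoter peaks and 182 at peaks away from promoters. Of the 100 strongest reproducible peaks, 33 were non-divergent promoter peaks, 30 were divergent promoter peaks and 37 lay away from promoters. Among the 500 strongest the numbers were 168, 71 and 261. The class therefore made up a larger share of the strongest 100 than its 17.7% of the whole list, in one pooled list with no replicate spread.

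Summits lay mostly upstream of the TSS, most often between 400 and 100 bp from it. In the reproducible list 779 of the 894 summits were upstream (87.1%, 95% Wilson interval 84.8 to 89.2), whereas upstream bases made up 49.9% of the bases open to the class. The median position was −236.5 bp (quartiles −347.75 and −145), and 603 summits (67.5%) lay between 400 and 100 bp upstream, a stretch with 29.8% of those bases. Only 66 summits (7.38%) were no more than 100 bp from the TSS.

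Each replicate's own summits were read only in candidate regions that overlapped these same peaks. Their agreement in position is therefore partly built in and is no independent support. The upstream share was 86.8% in replicate 1, 87.2% in replicate 2 and 87.8% in replicate 3 (mean 87.3% ± 0.470, SD, n = 3), above 50% in 3 of 3 replicates. The exact two-sided sign-flip permutation test gave p = 0.25, the smallest p that 3 replicates allow. Median positions were −233, −232.5 and −234 bp (mean −233 ± 0.764 bp, SD, n = 3), so the replicates differed by less than 2 bp.

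At divergent promoter peaks 255 of 310 summits (82.3%) were upstream, with a median position of −114 bp. Of the 310, 106 (34.2%) were no more than 100 bp from the TSS. Part of that contrast is set by the rule: between a divergent gene pair an upstream summit cannot be farther from its nearest TSS than the middle of the gap. No test of the difference is given for that reason.

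**Figure D2:**
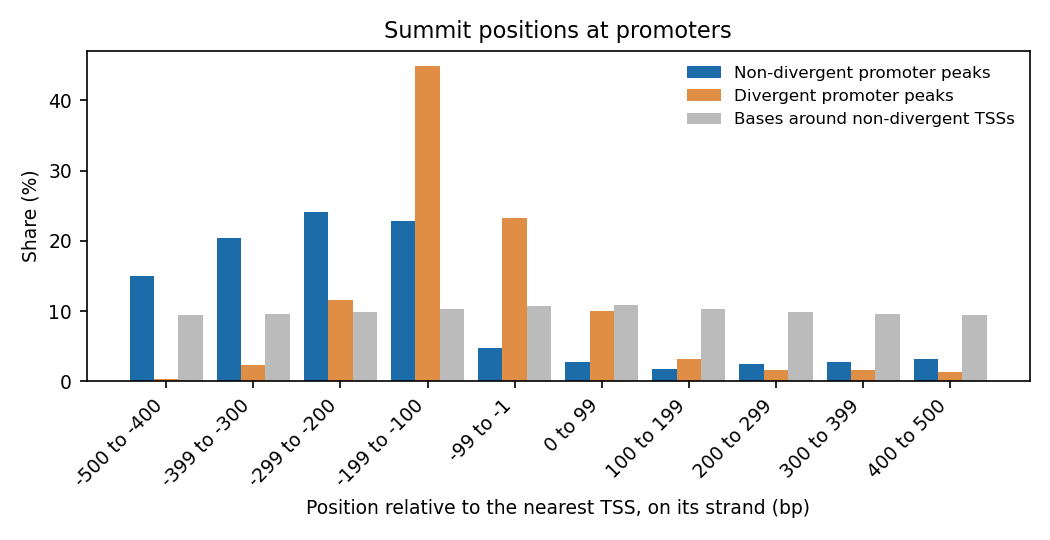
Share of summits (y axis, percent) by position relative to the nearest TSS (x axis, bp, negative is upstream) for non-divergent promoter peaks, divergent promoter peaks and the bases around non-divergent TSSs. Non-divergent summits are most frequent from 299 to 200 bp upstream (24.2%), divergent ones from 199 to 100 bp upstream (44.8%), and the bases are spread almost evenly.

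Scores were somewhat higher upstream. Upstream peaks had a median score of 232, against 198 for those at or downstream of the TSS, and 32 of the 33 peaks among the 100 strongest were upstream. By 100 bp steps the highest median score was 264, from 199 to 100 bp upstream, and the lowest was 141, from 100 to 199 bp downstream, where only 16 summits lay. Across all 894 peaks the Spearman correlation of score with position was 0.029. The strongest downstream peaks were those of GstE13 (88 bp downstream), ph-p (434 bp, score 924), Ptp4E, a receptor tyrosine phosphatase (401 bp, 842), CG9399 (48 bp, 836) and Sqor (8 bp, 797).

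Relative to gene models, 373 summits (41.7%) were intergenic and 376 (42.1%) were in an intron of the same gene. A summit can be both upstream of its TSS and intronic where the gene has another TSS farther out, and 315 of these 376 were of that kind. A further 72 (8.05%) were in a 5′ UTR, 48 (5.37%) in an intron of another gene, 12 in a non-coding exon, 11 in a 3′ UTR and 2 in a coding exon. At divergent promoter peaks 61.6% were intergenic and 15.8% were in an intron of the same gene. Coding sequence made up 39.9% of the downstream bases open to the class, but only 1 of the 115 downstream summits lay in it.

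Most peaks were found again in each replicate. The top list of replicate 1 held 799 of the 894 peaks (89.4%, 95% Wilson interval 87.2 to 91.2), against a background of 84.6% over all reproducible peaks. Replicate 2 held 796 (89.0%, 86.8 to 90.9; background 84.2%) and replicate 3 held 626 (70.0%, 66.9 to 72.9; background 73.3%), a mean of 82.8% ± 11.1 (SD, n = 3). The class thus stood a little above the background in replicates 1 and 2 and a little below it in replicate 3. These intervals cover counting error over peaks only.

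All 3 top lists held 543 peaks (60.7%, 57.5 to 63.9), against 157 (50.6%) of the divergent promoter peaks and 56.6% of all reproducible peaks. Of the others, 255 were in 2 top lists, 82 in 1 and 14 in none. Replicate 3 alone failed to hold 188 peaks in its top list, a number that was 36 for replicate 1 alone and 31 for replicate 2 alone. Without replicate 3, both remaining top lists held 81.8%, so this library moved the share more than either of the others did.

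No candidate region of replicate 3 overlapped 199 of the 894 peaks (22.3%, 19.7 to 25.1), against 132 of the 310 divergent promoter peaks (42.6%), 12.9% of peaks away from promoters and 16.4% of all reproducible peaks. Replicate 1 lacked 5 and replicate 2 lacked 4. A gap between promoters and the rest in replicate 3 was known from earlier work on these data, so its presence in this class is no independent support for it.

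Across the replicates the top list share of the class minus that of divergent promoter peaks was −3.21, −3.87 and 15.5 percentage points (mean 2.81 ± 11.0, SD, n = 3; exact two-sided sign-flip permutation test, p = 1.0). The share minus that of peaks away from promoters was 6.51, 6.64 and −5.50 points (mean 2.55 ± 6.97; exact test, p = 0.5). In both comparisons replicate 3 had the opposite sign to replicates 1 and 2, and neither mean exceeded the spread between replicates. Without replicate 3 the differences were −3.54 ± 0.465 and 6.57 ± 0.0931 points (SD, n = 2), and with top lists of 2500 regions they were −3.93 and 11.7 ± 6.90 points (SD, n = 3), the first within its spread, so the values rest on that library and on the length of the lists. Median rank percentiles minus those of divergent promoter peaks were 1.41, 1.49 and −2.08 (mean 0.27 ± 2.04; exact test, p = 1.0). A lower percentile is a stronger rank, so a negative difference places the class ahead of divergent promoter peaks. Peaks with no candidate took the last rank of the list. In replicate 3 these were 22.3% of the class and 42.6% of divergent promoter peaks. The value of −2.08 therefore does not compare the strength of listed regions alone.

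**Figure D3:**
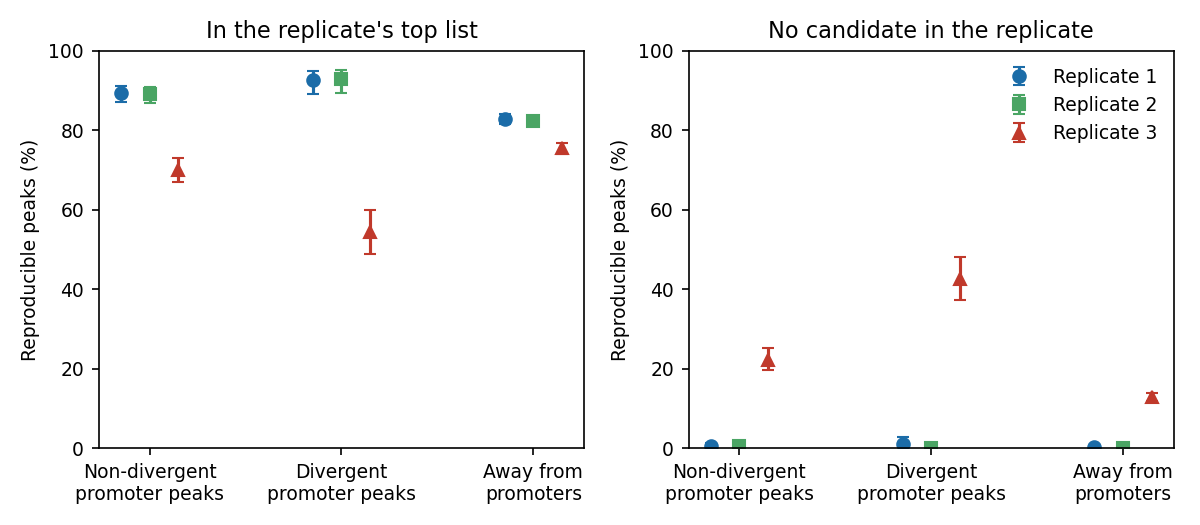
Share of reproducible peaks (y axis, percent, with 95% Wilson intervals) in the top list of each replicate (left) and with no candidate in it (right), for non-divergent promoter peaks, divergent promoter peaks and peaks away from promoters. Replicate 3 is lowest in all 3 classes on the left, at 70.0%, 54.5% and 75.5%, and highest on the right, at 22.3%, 42.6% and 12.9%.

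The peaks that replicate 3 lacked had lower scores in part. These are scores of the reproducible list, which draws on replicate 3 as well, so some of this trend is built in. In 4 equal groups by signal score, from the strongest to the weakest, 12.9%, 20.6%, 27.4% and 28.1% had no candidate there. Their median score was 194, against 245 for peaks with one, but their summit GC content was nearly the same (30.6% ± 8.83 against 31.2% ± 7.70, SD over 199 and 695 peaks). The strongest of them after GstE13 and Sox14 were at TRAM (872), CG31635 (823), Gapdh2 (770), CG8788 (755), CG8036 (753) and papi (724), a Tudor-domain gene of the piRNA pathway. None of these was weak in the other libraries: their ranks ran from 146 to 257 in replicate 1 and from 70 to 199 in replicate 2. What sets their absence from replicate 3 was not tested.

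The strongest peaks that replicate 1 lacked were at Cftr (348), CG11191 (186) and CG4592 (145), and those that replicate 2 lacked were at fray (337), a kinase gene, CG12643 (223) and MYPT-75D (132). None of these 6 reached the upper quartile of the class, a score of 426.

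Where a peak was found, the replicates placed it closely. The replicate's summit was a median of 14, 13 and 29 bp from the reproducible summit in replicates 1, 2 and 3, and within 50 bp for 78.1%, 78.7% and 68.5% of the 889, 890 and 695 peaks listed. Signal scores of 2 replicates at the same peaks had Spearman correlations of 0.88 (replicates 1 and 2, 886 peaks), 0.85 (1 and 3, 692) and 0.88 (2 and 3, 692), a description across peaks chosen from these replicates. Regions can be shared: 142, 145 and 128 of the listed peaks used a candidate region that also overlapped another reproducible peak.

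Summits were AT-rich. In a window reaching 50 bp to each side of the reproducible summit the GC content averaged 31.1% ± 7.97, against 44.3% ± 7.04 in windows of the same width centred 400 bp to each side (SD over 894 peaks), and it was lower at the summit for 793 peaks (88.7%). With each replicate's own summits the difference was −13.4, −13.5 and −13.4 percentage points (mean −13.5 ± 0.0432, SD, n = 3), lower in 3 of 3 replicates (exact two-sided sign-flip permutation test, p = 0.25, the smallest possible). The replicates' summits were read at these same peaks, so this agreement is partly built in as well. Divergent promoter peaks had 29.1% at the summit against 46.4% in the flanks, and peaks away from promoters 31.0% against 45.1%. Low GC content was therefore not particular to the non-divergent class.

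The longest A and T run in the summit window had a median of 11 bp, against 7 bp in the flanks, and 23.3% of summits against 6.88% of flanks held a run of 15 bp or more. The AT-rich words TTTAAA and ATATTA, counted on both strands, were in 21.9% and 24.2% of summit windows, against 6.88% and 6.77% of flanks. A run of 7 A or 7 T was in 15.3% of summits and 10.2% of flanks.

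With sequence aligned at the TSS in place of the summit, the AT-rich stretch was seen again. The TSSs of the class were taken because a summit lay near them, so this is no independent support for it. At the 830 TSSs of the class the mean GC content in 51 bp was lowest 250 bp upstream, at 34.8%, and highest 50 bp upstream, at 49.4%. At the 12286 other non-divergent TSSs, without a promoter summit, it was 38.5% and 42.9% at these positions. The swing between these positions was larger at the TSSs of the class, but the positions are the lowest and highest of that class. The other TSSs had their own lowest value 200 bp upstream (38.4%) and their highest 300 bp downstream (46.1%).

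The GAGA factor motif, searched as GAGAGAG on both strands from 250 bp before to 50 bp after the TSS, was in 182 of the 830 promoters of the class (21.9%). It was in 8.40% of the other non-divergent promoters, in 7.62% of all protein-coding promoters and in 10 of 305 divergent promoters with a peak (3.28%). Genes with 1 TSS had it in 19.9% of promoters of the class and in 5.38% of the others, and genes with several TSSs in 22.8% and 11.7%. Summit windows are narrower than these promoter windows, and 1.68% of them held the motif, against 4.92% of flank windows. At divergent summits the motif was in 0.323% of windows, and at summits away from promoters in 0.623%. It was most frequent from 100 to 51 bp upstream of the TSS, where a motif started in 9.88% of promoters of the class and in 2.98% of the others. It also stood out on the far side of most summits: from 500 to 451 bp upstream the shares were 4.70% and 0.651%, and from 450 to 401 bp 3.25% and 0.806%. Between 300 and 251 bp upstream, close to the median summit, they were 1.45% and 1.16%. Downstream of the TSS the class was higher as well. From 50 to 99 bp downstream the shares were 2.65% and 0.594%, and from 450 to 499 bp 1.93% and 0.757%. The excess was thus not limited to the upstream side. Peaks with the motif at their promoter had a median score of 268 and those without it 217, and 21.6% and 22.4% had no candidate in replicate 3. A match is a stretch of letters and not a measured binding site.

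**Figure D4:**
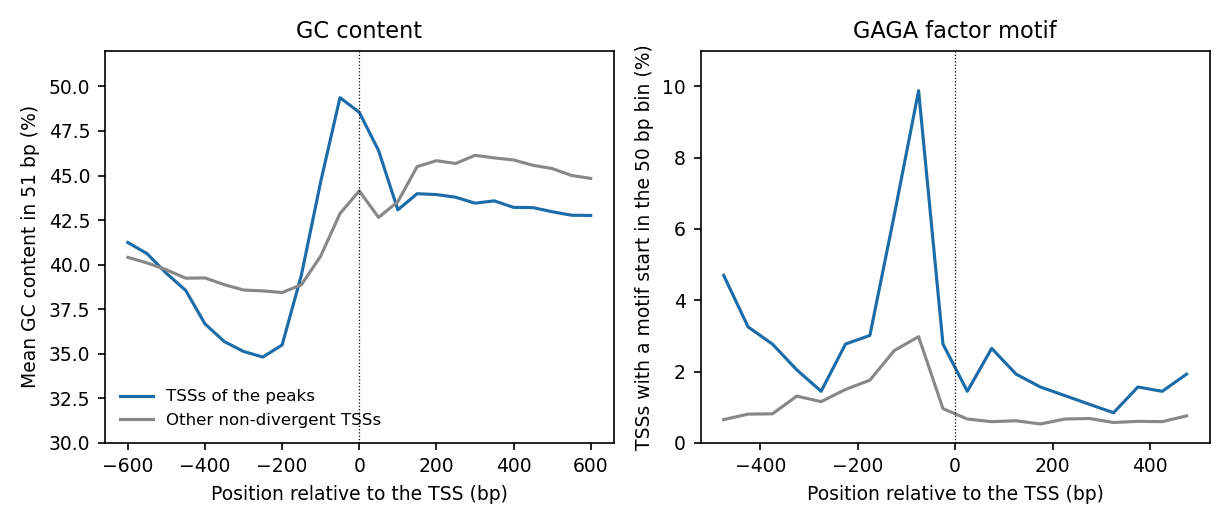
Mean GC content in 51 bp windows (left, percent) and share of TSSs with a GAGAGAG match starting in each 50 bp bin (right, percent, both strands) by position relative to the TSS, for the TSSs of non-divergent promoter peaks and other non-divergent TSSs. The TSSs of the peaks have the deeper GC minimum, 34.8% at 250 bp upstream, and a motif starts in 9.88% of them from 100 to 51 bp upstream.

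Core elements were counted at their usual places. A TATA box (TATA, then A or T, then A; starts from 40 to 20 bp upstream, gene strand) was in 39 of the 830 promoters of the class (4.70%) and in 9.58% of the other non-divergent promoters. An Initiator (TCAGT, then C or T; starts within 6 bp of the TSS, gene strand) was in 108 (13.0%) and in 8.25%. The letters CGATA, the core of the sites of the insulator protein BEAF-32, were on either strand of the 300 bp window in 31.8%, against 40.1% of the other non-divergent promoters and 45.7% of all promoters. These shares were not tested, and the classes differ in TSS number per gene. Among genes with 1 TSS the TATA box was in 6.13% of promoters of the class and 13.1% of the others. Among genes with 2 or more TSSs it was in 4.04% and 5.72%.

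Genes with more TSSs held a peak more often. Of the 9654 genes with a non-divergent TSS, 748 held a peak (7.75%). The share was 3.84% of genes with 1 TSS, 11.5% with 2, 20.5% with 3, 28.3% with 4 and 44.7% with 5 or more. Genes with 1 TSS were still the largest single group, 261 of the 748. Genes with a peak had a median of 2 TSSs and a median length of 8690 bp, and those without one 1 TSS and 2130 bp. Each added TSS widens the sequence in which a summit can be counted, so these shares were not tested. By arm, X held 23.2% of the peaks and 17.3% of non-divergent TSSs, whereas no other arm held a larger share of the peaks than of the TSSs by as much as 1 point.

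Counts over gene lists are read against the 7.75% of all such genes, and no list was tested. Of 410 symbol entries in the lists 28 had no match, 5 of them in the ecdysone list, so the lists are not complete. Glycolysis had a peak at 5 of 12 genes, circadian rhythm at 5 of 13 and the ecdysone response at 10 of 27 (37.0%). The share of all genes with the same number of TSSs would give 1.99, 2.21 and 5.28 genes for these lists. Peaks lay at 1 of 42 cytosolic ribosomal protein genes, 1 of 26 translation initiation factor genes and 0 of 26 proteasome genes. By TSS number these would be 4.42, 1.79 and 1.61, so the last 2 counts are near that measure.

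Ecdysone is the steroid hormone whose pulses time the prepupal stage. Within the ecdysone list, peaks lay at 3 nuclear receptor genes, those of the ecdysone receptor EcR, of Eip75B and of Hr78. The early-response gene Eip74EF held a peak too. The strongest of the list was at E23, an ABC transporter that acts on ecdysone. That peak had a score of 1047, 212 bp upstream, and ranks 70, 83 and 82. Sox14, with 1081, was not on the list. Eip75B had 581 with its summit 15 bp downstream (ranks 360 and 472, none in replicate 3), and Hr78 had 296 (ranks 1548, 1319 and 1055). EcR had 264 (ranks 1937 and 1804, none in replicate 3). E23 and Ldh scored highest and had a candidate in every replicate, while the median score of the 13 peaks of the list was 209, close to that of the whole class. Peaks also lay at Eip63E, Eip63F-1, ImpE2, Ldh and vri.

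Glycolytic genes with a peak were Gapdh2, Ldh, Eno, Hex-A and Pgk, which encode glyceraldehyde-3-phosphate dehydrogenase, lactate dehydrogenase, enolase, a hexokinase and phosphoglycerate kinase. Gapdh2 scored 770 (ranks 146 and 199), Ldh 766 (171, 187 and 239) and Eno 693 (208 and 286). All 5 summits were upstream, from 156 to 262 bp. Gapdh2, Eno and Pgk had no candidate in replicate 3, and only Ldh and Hex-A were listed there. Ldh is counted in the ecdysone list too.

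Among circadian genes, sgg, the kinase GSK-3 that acts on clock proteins, had 811 (ranks 193, 147 and 201), cry, the light receptor cryptochrome, 465 (591, 984 and 482), and dco, the casein kinase Doubletime, 206 (2334, 2974 and 1854). The list was completed by Pdp1 and vri, both clock transcription factor genes. All but vri were listed in every replicate.

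Cell cycle genes had a peak at 6 of 21, led by CycE, the cyclin of S phase entry (424), and by Dp (359) and E2f1 (210), partners in the E2F transcription factor. Of their 6 peaks 5 had no candidate in replicate 3. The TSS numbers of these genes would give 2.51. Signalling genes of the Wnt, Hedgehog, Notch and Dpp pathways had peaks at 7 of 25 (3.31 by TSS number), with mam, a Notch coactivator, at 356, shn, a zinc-finger protein of the Dpp pathway, at 285 and Mad, its transcription factor, at 185. Heat shock genes had 3 of 13 (1.38 by TSS number), and besides Hsp27 these were Hsp26 (339) and Hsp60A (132), both without a candidate in replicate 3.

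Polycomb and trithorax genes had peaks at 4 of 18 (2.31 by TSS number), among them ph-p, its copy ph-d (156) and Trl (601), which encodes GAGA factor. Insulator genes had 2 of 12 (1.12), Trl again and BEAF-32 (153). Muscle genes had 5 of 24, close to the 4.44 that their TSS numbers would give, led by Msp300 (773), sls (373) and Actn (185), which encode proteins of the muscle cytoskeleton. Chitin genes had 4 of 24 (1.63), led by the chitinase gene Cht7 (653), mmy (306) and Idgf6 (126). ph-p and ph-d are near-identical copies, and how reads that match both were placed is not given in the sources used here.

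In the other lists the counts were small, or near those by TSS number, which are 1.28, 1.93, 2.19, 1.88 and 4.10 genes for the first 5 lists that follow. Peaks lay at 2 of 14 autophagy and cell death genes (hid at 449 and Atg8a at 232), 2 of 17 insulin and TOR genes (melt at 474 and foxo at 220), 2 of 21 Rab GTPase genes (Rab5 at 536 and Rab26 at 162) and 2 of 30 glutathione S-transferase genes (GstE13 and GstD1 at 316). Cytochrome P450 genes had 5 of 76 (Cyp6v1 at 459, Cyp6a2 at 201 and Cyp6a16 at 181 led). Single genes were elav of 19 neuronal genes (735), Cpr50Ca of 128 cuticle genes (341), Hmg-2 of 5 high mobility group and linker histone genes (220), and Mnt of the 2 genes eligible among Myc, Max and Mnt (269). By TSS number the neuronal list would give 2.95 genes and the cuticle list 5.78. The ribosomal protein gene was RpS3A (112).

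Besides the proteasome, 9 lists had 0 genes with a peak: 15 mitochondrial ribosomal protein, 21 complex I, 10 tRNA synthetase, 13 Mediator and TFIID, 5 nuclear pore, 15 homeotic, 104 odorant and gustatory receptor, 6 salivary glue and 23 testis genes. By TSS number the odorant and gustatory receptor list would give 5.26 genes and the homeotic list 1.70, while the other 7 would give between 0.231 and 1.60.

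**Figure D5:**
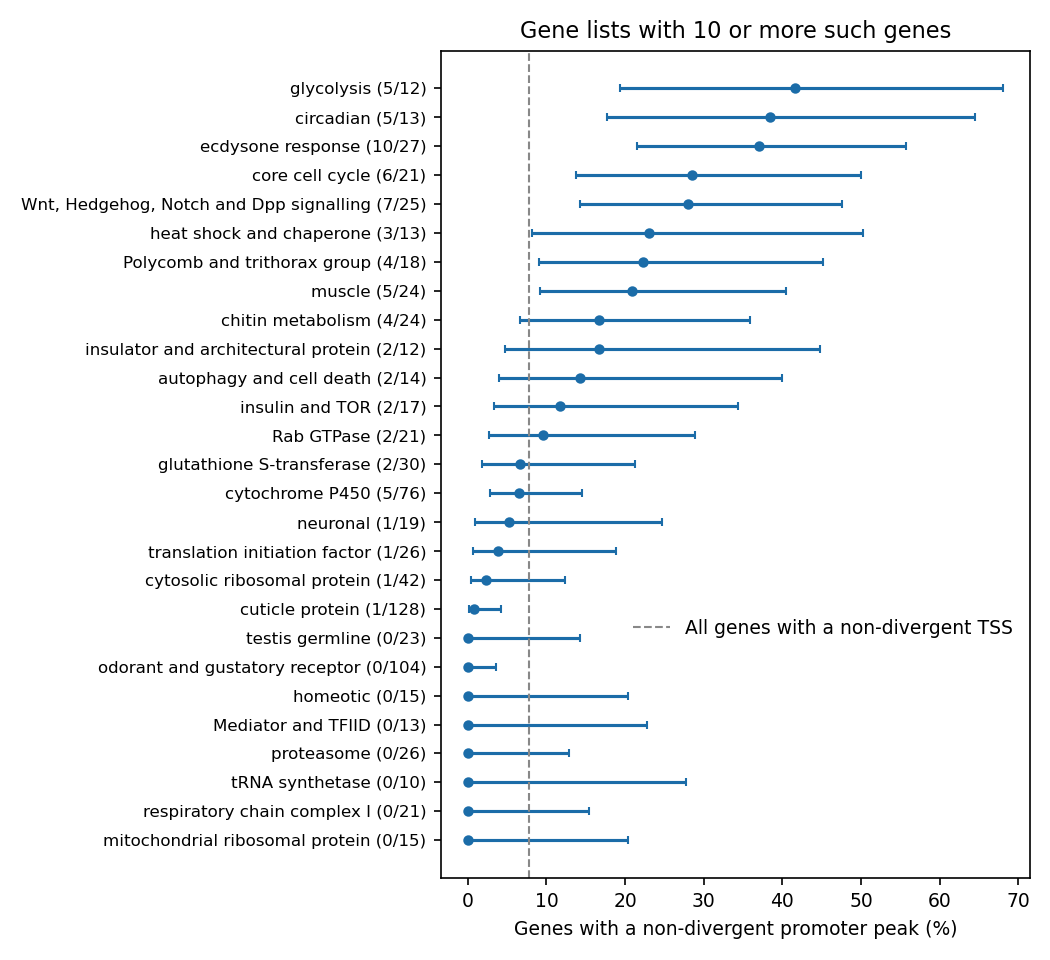
Share of the genes with a non-divergent TSS that held a peak (x axis, percent, with 95% Wilson intervals over genes) for each list of at least 10 such genes, with the counts in the labels and the share of all such genes, 7.75%, as a dashed line. Glycolysis, circadian rhythm and the ecdysone response are the highest, with wide intervals, and the lists at the bottom are at 0.

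Of the 125 genes with more than 1 peak, 62 had each peak at a TSS of its own, 54 had all of them at 1 TSS and 9 were in between. Rtnl1 held 4 peaks at 3 TSSs with scores from 171 to 1409, and dnc, a cAMP phosphodiesterase, held 4 at 4 TSSs with scores from 204 to 922 and positions from −397 to −287 bp. Ptpmeg2 held 4 at 4 TSSs (467 to 855), and shn held 4 at 3 TSSs (135 to 285). In all, 114 of the 894 peaks overlapped another of the class, and merging left 837 regions.

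Peaks beside the limits of the rule ranged widely in score. Just inside 500 bp were fray and fzr, both 500 bp upstream, with scores of 337 and 150, and just outside were CG9083 at 501 bp and zormin at 502 bp, with 133 and 139. The last 20 bp inside the limit held 23 peaks of the class, and the 20 bp beyond it held 22 peaks that otherwise met the rule. For the distance to an opposite-strand TSS, Eno (1015 bp to Rrp40) and Hcf (1021 bp to PMCA) were just inside the class, with scores of 693 and 139, and Gnpat (994 bp to CG5112) and CG15465 (991 bp to CG32767) just outside, with 363 and 202.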

How the data were processed

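The samples were 3 biological replicates of 1 group. The dm6 narrowPeak lists were used. Per the labels and notes deposited beside the files, a replicate's candidates came from its own alignment, and the reproducible list from all candidate lists by a threshold on the irreproducible discovery rate. Which aligner and peak caller produced them is not given in the sources used here. Each deposited signal score is the authors' value per region on an unstated scale. Ranks and scores were compared inside 1 list at a time.

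TSSs were those of protein-coding transcripts of Ensembl release 115 (BDGP6 annotation 54), and sequence was the Release 6 assembly from RefSeq. A replicate supported a peak when its strongest overlapping candidate (at least 1 bp) existed, and was in its top list when that candidate was among the 5056 strongest. The 5056 reproducible peaks were the strongest of the 30000 pooled candidates. Depth is unknown, and Wilson intervals cover counting error over peaks or genes only. Differences across replicates were tested by the exact sign-flip permutation test, whose smallest p is 0.25. No test ran over peaks or genes. Class, position and overlap were tested on simulated data, with 1200 of 1200 right each. The 14 motifs and 31 gene lists, the members and the rule for named genes were chosen with earlier results of these data known. The rule named CG4318, the genes of the 20 strongest peaks, up to 3 genes of each list by score, the strongest peaks that a replicate lacked, the 5 strongest downstream, the genes with the most peaks and the peaks beside each threshold. Other genes of the glycolysis, circadian and ecdysone lists were named after their values were seen, to account for every gene of these lists. Alternatives covered the TSS window, the distance to an opposite-strand TSS, the TSS set, the peak position, a stricter score threshold, the overlap, the length of the top lists and the omission of each replicate. The scripts ran in Python 3.11.15 with scipy 1.17.1, numpy 2.4.6, pandas 2.3.3 and matplotlib 3.10.9.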

Additional observations from a re-analysis of the deposited data

How the results depend on the processing

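Of the 142 recomputed values, 27 moved past the replicate spread, the counting interval or a factor of 1.5, 10 changed sign, and 105 did neither; the cause was not tested. The number of peaks became 413 with a window of 250 bp, 556 with 1 TSS per gene and 532 above the median score of the reproducible list; genes became 391 with 250 bp and 482 above the median score. Median position stayed upstream throughout: −170 bp (250 bp window), −256 (1000 bp), −229 and −235 (opposite-strand TSS within 500 and 2000 bp), −223 (1 TSS per gene), −232 (region centres), −234 (strongest of overlapping peaks), −237 (reciprocal overlap of 50%) and −238 (replicate region covering the summit). The mean top list share was 70.9% with reciprocal overlap and 57.7% with top lists of 2500 regions. The share in all 3 top lists was 78.8% above the median score, 41.5% with reciprocal overlap and 54.6% with covered summits. It was 40.2% with 2500 regions and 71.9% with 10000. With a replicate left out, the share in both remaining top lists was 64.2% to 81.8%, a measure over fewer lists. The share with no candidate in replicate 3 was 19.0%, 35.8% and 25.7% above the median score, with reciprocal overlap and with covered summits. The differences that changed sign were below the replicate spread as reported. The median rank percentile minus that of divergent promoter peaks became −0.088 with 250 bp, −0.27 with 2000 bp and −0.34 above the median score. With reciprocal overlap it was −28.4 ± 51.7 (SD, n = 3), where unlisted peaks again took the last rank. It was −0.34 to 1.45 when a replicate was left out. The top list share minus that of divergent promoter peaks became −3.93 points with 2500 regions, and −3.54 to 6.15 when a replicate was left out, the lowest without replicate 3. The share minus that of peaks away from promoters became −2.31 points above the median score, −2.82 with 10000 regions and 11.7 with 2500 regions, and it was 0.57, 0.51 and 6.57 points without replicate 1, 2 or 3. With 2500 regions it had 1 sign in all 3 replicates (exact p = 0.25, the smallest possible). Upstream share and GC difference kept their direction in every alternative run. No paired analysis was possible because the samples form 1 group; the differences between peak classes were taken within each replicate. Depth is unknown, so a missing candidate cannot be told apart from one below the list's limit.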
